A study of Mus musculus with 12 samples.

Results

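Acetylation of histone H3 at lysine 9 (H3K9ac) was examined at 7 genes of cholesterol synthesis in adult mouse liver. The genes were *Hmgcs1*, *Idi1*, *Fdft1*, *Sqle* and *Cyp51*, which encode enzymes of the pathway, and *Srebf2* and *Insig1*, which encode its regulators. No gene of sterol uptake was among the 7. They are 7 of 21911 protein-coding gene symbols of the GENCODE M21 annotation, and their peaks were all those overlapping the gene body or the 5 kb on either side of the gene start in the 6 H3K9ac peak lists. The B6 lists held 14 (replicate 1) and 10 (replicate 2) such peaks and the MSM lists 17 and 20, whereas the F1 BM list held 14 and the F1 MB list 7. Paired values for a strain are those of replicate 1 and then replicate 2.

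The libraries came from whole livers of adult mice. B6 is C57BL/6J, the strain of the reference genome, and MSM is MSM/Ms, an inbred strain of Japanese wild mouse origin. Each parental strain was represented by 2 individuals. F1 BM had a B6 mother and an MSM father and F1 MB had an MSM mother and a B6 father, with 1 library each and so no replicate error. The study made these libraries to ask whether an acetylated promoter domain ends at a B2 insertion carried by B6 and missing from MSM, and whether the alleles differ in the hybrids.

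Cholesterol is built from acetyl-CoA in a long series of steps, and the liver is one of the main sites of this synthesis. When sterols are scarce, the transcription factor SREBP2, the product of *Srebf2*, is carried by SCAP from the endoplasmic reticulum to the Golgi, is cut there by proteases, and enters the nucleus, where it binds sterol regulatory elements in the promoters of the enzyme genes. When sterols are plentiful, INSIG1 holds SCAP and SREBP2 in the endoplasmic reticulum. H3K9ac is found at active promoters and enhancers. A mark present in fewer cells and a weaker mark in every cell cannot be told apart in whole liver.

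The 5 promoters that could be matched in the RefSeq promoter table (GRCm38.p6) are those of *Hmgcs1*, *Idi1*, *Srebf2*, *Insig1* and *Cyp51*. The 250 bases before the RefSeq start are given for 4 of them, because these 4 carried a promoter peak in every library. Capitals mark CCAAT boxes on either strand (ATTGG on the opposite strand), the letters of a sterol regulatory element in *Hmgcs1*, and in *Srebf2* a shorter stretch of those letters that was searched for after the sequence had been seen. The sequences lie at chr13:119690101-119690350 (*Hmgcs1*), chr13:8885356-8885605 (*Idi1*), chr15:82147019-82147268 (*Srebf2*) and chr5:28071162-28071411 (*Insig1*), all on the plus strand, with RefSeq starts at −28, 105, 88 and 49 bp from the GENCODE starts (negative values are upstream).
Hmgcs1: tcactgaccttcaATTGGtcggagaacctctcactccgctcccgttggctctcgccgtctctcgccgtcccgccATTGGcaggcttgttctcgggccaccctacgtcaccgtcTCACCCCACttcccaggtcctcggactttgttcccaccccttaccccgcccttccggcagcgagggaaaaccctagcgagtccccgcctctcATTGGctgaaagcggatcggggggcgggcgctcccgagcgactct
Idi1: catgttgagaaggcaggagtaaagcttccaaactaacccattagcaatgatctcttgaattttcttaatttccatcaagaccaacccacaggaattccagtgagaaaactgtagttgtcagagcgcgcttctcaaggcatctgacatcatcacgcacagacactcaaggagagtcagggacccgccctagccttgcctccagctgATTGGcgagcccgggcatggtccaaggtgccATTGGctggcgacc
Srebf2: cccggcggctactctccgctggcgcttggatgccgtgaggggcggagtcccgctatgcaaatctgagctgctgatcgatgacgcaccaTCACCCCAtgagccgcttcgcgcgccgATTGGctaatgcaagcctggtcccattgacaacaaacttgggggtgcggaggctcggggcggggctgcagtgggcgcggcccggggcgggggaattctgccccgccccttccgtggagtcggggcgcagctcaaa
Insig1: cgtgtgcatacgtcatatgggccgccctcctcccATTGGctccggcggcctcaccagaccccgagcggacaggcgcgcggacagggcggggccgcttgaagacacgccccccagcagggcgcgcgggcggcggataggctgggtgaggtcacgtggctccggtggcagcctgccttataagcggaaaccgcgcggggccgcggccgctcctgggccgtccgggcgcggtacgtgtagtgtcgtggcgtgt

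The letters TCACNCCAC, as in a sterol regulatory element, were searched for on both strands in these 250 bases and were found at *Hmgcs1* alone, as TCACCCCAC on the plus strand from position −137 to −129 relative to the start, and in 1.05% of all 32851 promoters. The shorter letters TCACNCCA, which the longer motif contains, were present in *Hmgcs1* and *Srebf2* and in 3.67% of all promoters. In *Srebf2* they lay from −162 to −155. CCAAT was present in all 5 promoters against 33.8% of all promoters, and the GC box GGGCGG in all 5 against 32.7%. The E-box CACGTG was found in *Insig1* alone, against 6.02% of promoters. The G and C content was 72.8% for *Insig1*, 67.6% for *Srebf2*, 64.8% for *Hmgcs1*, 62.8% for *Cyp51* and 51.2% for *Idi1*, where the median of all promoters was 52.4%. These matches are letters in a window and not measured binding.

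The 6 lists differed in size, and the B6 libraries stood furthest apart. B6 replicate 1 had 22968 peaks over 16.0 Mb and B6 replicate 2 had 11619 peaks over 6.28 Mb, the highest and the lowest of the 6 lists, whereas the MSM lists had 17310 and 17584 peaks over 9.66 and 9.69 Mb. F1 BM had 20173 peaks and F1 MB 13235. Read counts are no part of these lists, sequencing depth did not enter the comparisons, and the lack of a peak may mean that it was too weak to be called. As a check of the tissue, 5 of 6 hepatocyte markers had a promoter peak in all 6 libraries, and the exception, *Hnf4a*, had none within 1 kb of its annotated start but 7082 to 12851 bp under peaks in its gene. Their promoter domain was wider in both B6 libraries for 3 of 5 (*Alb*, *Apoa1*, *Fgb*, against 16.7% of genes) and in both MSM libraries for none. Their fold, ranked within each list, was higher in both B6 libraries for 3 of 5 (*Alb*, *Cps1*, *Fgb*, against 18.4%). By length under peaks, 0 of 6 were longer in both libraries of either strain. No Kupffer cell marker had a peak, and stellate, bile duct and lymphocyte markers had at most 1 gene with a peak in a library. The 4 sinusoidal endothelial markers summed to 6571 and 0 bp under peaks in B6, 956 and 2767 bp in MSM, 5726 bp in F1 BM and 1240 bp in F1 MB, so the strains overlapped. *Stab2* was without a peak in B6 replicate 2 and F1 MB.

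The length of DNA under H3K9ac peaks (covered length) was greater in both MSM libraries than in either B6 library at 4 of the 7 genes, *Hmgcs1*, *Idi1*, *Fdft1* and *Sqle*, against 4.97% of the 11446 genes with a peak in a parental library. The 7 genes were chosen with earlier results of these data known, so the shares of all genes give scale and are no independent test. *Sqle* had no B6 peak and so could be called only toward MSM. Among genes with a peak in each strain, a comparison added after seeing the data, 3 of 6 were longer in both MSM libraries, against 4.84%. None of the 7 was longer in both B6 libraries, against 11.6% of genes. The mean difference, MSM minus B6, was above 0 in 7 of 7 genes against 33.7% of all genes, with a median of 710.5 bp against −123.5 bp. *Cyp51*, *Srebf2* and *Insig1* overlapped between strains. The two-sided exact permutation p was 0.333 for each gene whose groups did not overlap, and with 2 libraries a strain no smaller p can be reached, so no single difference could pass 0.05.

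The count rested on the B6 libraries to different degrees. Without B6 replicate 2, and so against the longer list alone, the same 4 genes stood above it in both MSM libraries, against 5.03% of all genes, while 84.2% of all genes were longer in B6 replicate 1 and 1 of 7 was (*Srebf2*). The mean difference was then above 0 in 5 of 7 genes against 9.75% of all genes, with −998.5 bp at *Srebf2* and −72.0 bp at *Insig1*. Without B6 replicate 1, 7 of 7 were longer in MSM, against 61.2% of all genes. When every list was limited to the same number of peaks, 6 of 7 were longer in both MSM libraries against 8.87% of genes, and *Cyp51* and *Srebf2* joined the 4. At the same covered length 4 of 7 were, against 17.5%, but these were *Idi1*, *Fdft1*, *Cyp51* and *Srebf2*, and the strains overlapped at *Hmgcs1* and *Sqle*. At *Idi1*, *Cyp51* and *Srebf2* this limit removed every peak of B6 replicate 1, leaving 0 bp. With all peaks that library had 678, 1099 and 2831 bp there, more than B6 replicate 2 (228, 237 and 590 bp). These 3 calls thus rest on B6 peaks that the limit removed.

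**Figure D1:**
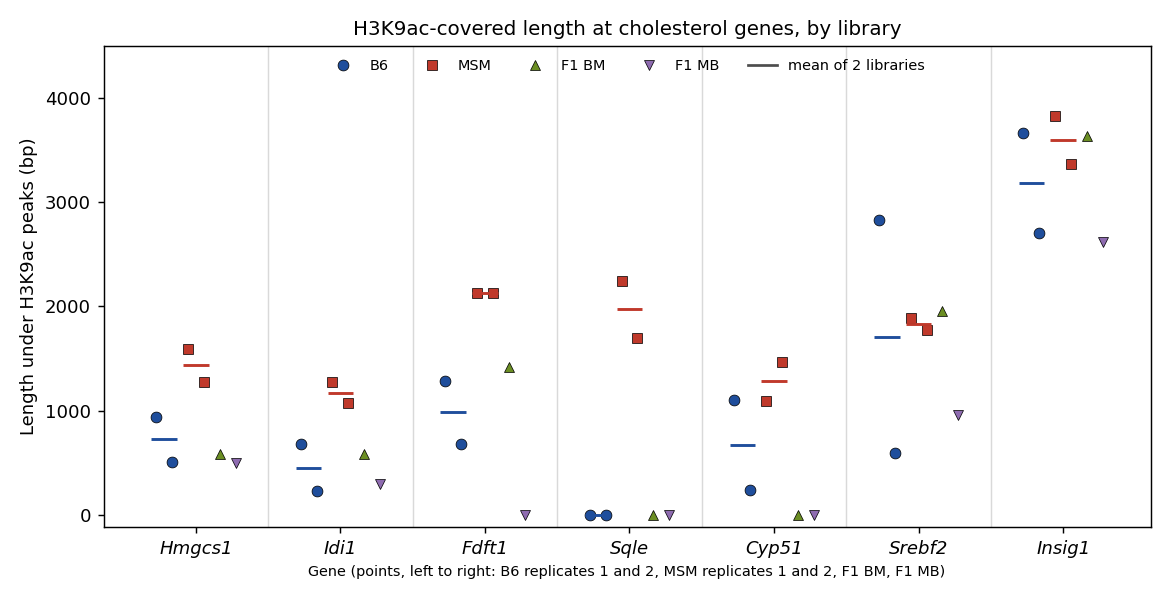
Length under H3K9ac peaks (bp, linear axis) in the gene body and 5 kb around the start for each gene; each point is 1 library and each bar the mean of 2 libraries. Both MSM libraries lie above both B6 libraries for *Hmgcs1*, *Idi1*, *Fdft1* and *Sqle*, and *Sqle* is at 0 bp in B6 and in both hybrids.

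*Hmgcs1* encodes the synthase that makes HMG-CoA, the substrate of the rate-limiting step. The gene (ENSMUSG00000093930.2) lies on the plus strand of chromosome 13 from 119690379 to 119708260 in GRCm38. Its covered length was 938 and 511 bp in B6, 1593 and 1277 bp in MSM, 585 bp in F1 BM and 499 bp in F1 MB. The MSM values were the highest and the hybrids lay within the range of the B6 libraries or below it. The B6 mean was 724.5 ± 301.9 bp and the MSM mean 1435 ± 223.4 bp (SD, n = 2 each). All 6 libraries had a peak with its summit 196 to 347 bp downstream of the start, over the untranslated first part of the gene. In MSM further peaks followed it, so that the promoter domain (peaks up to 500 bp apart joined) ended 1475 and 1595 bp downstream, against 921 and 604 bp in B6, 660 bp in F1 BM and 596 bp in F1 MB. The domain measured 1381 and 1543 bp in MSM against 938 and 511 bp in B6. MSM replicate 1 alone had another peak upstream, from −681 to −416 bp relative to the start.

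The enrichment of *Hmgcs1* went the other way. Fold enrichment over background was ranked within each list, because median folds differed between lists. The strongest promoter peak stood at percentile 92.7 and 93.9 in B6, 85.5 and 56.4 in MSM, 63.3 in F1 BM and 64.8 in F1 MB, with folds of 11.5 and 8.0 in B6 and 7.78 and 5.31 in MSM. The rank difference, MSM minus B6, was −22.3, and it ran from −36.8 without MSM replicate 1 to −7.78 without MSM replicate 2. When all lists were limited to the same covered length, the strains overlapped at *Hmgcs1* in both domain width and rank. The width difference was then 236 bp, while the rank difference was −36.8, with ranks of 64.2 and 93.9 in B6 and 69.4 and 15.0 in MSM. The MSM domain was made of several peaks: without joining, the width of the peak nearest the start differed by −192 bp, MSM minus B6.

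*Idi1* encodes isopentenyl-diphosphate isomerase, which interconverts the isoprenoid building blocks. The gene (ENSMUSG00000058258.14) lies on the plus strand of chromosome 13 from 8885501 to 8892451. The covered length was 678 and 228 bp in B6, 1275 and 1070 bp in MSM, 584 bp in F1 BM and 293 bp in F1 MB. Both hybrids thus lay between the B6 values. The promoter domain was 748 and 228 bp wide in B6 and 1435 and 1270 bp in MSM. It began 428 and 221 bp upstream of the start in MSM, and 45 and 114 bp downstream of it in B6. In the hybrids it began 74 bp (F1 BM) and 47 bp (F1 MB) downstream, so that peaks upstream of the start were listed in both MSM libraries and in no other. In MSM replicate 2 this was a separate weak peak from −221 to −3 bp (fold 3.30, −log10 q 3.82), and with a −log10 q of at least 5 it was lost and only MSM replicate 1 had a peak there. The rank of the strongest peak was 73.3 and 4.34 in B6 and 91.3 and 84.0 in MSM. *Gm48574*, an antisense gene, overlaps this start, and peaks do not tell strands apart.

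*Fdft1* encodes squalene synthase, the first enzyme committed to sterols. The gene (ENSMUSG00000021273.10) spans 63145150 to 63179578 on the minus strand of chromosome 14. Its covered length was 1288 and 684 bp in B6, 2130 and 2131 bp in MSM, 1418 bp in F1 BM and 0 bp in F1 MB. MSM was the longest and F1 MB was without any peak. Peaks in *Fdft1* lay on either side of the start of a shorter transcript model, at 63177793, 1785 bp inside the longest model. A peak upstream of that start, 868 to 1455 bp into the longest model, was present in B6, MSM and F1 BM. Downstream of it, a broad stretch within the first intron of that model, from 2124 to 3932 bp, was covered in both MSM libraries, and a short peak lay there in F1 BM (fold 2.57). It was absent from both B6 libraries. The reverse held further in, where a peak at 14580 to 15168 bp, over a coding exon, was present in both B6 libraries (fold 9.38 and 5.81) and in F1 BM (3.14) but in neither MSM library nor F1 MB. When the peaks of the 6 lists were merged into 17 regions over the 7 genes, it was the only one found in both B6 libraries and in no MSM library, and 3 regions (1 in *Fdft1*, 2 in *Sqle*) were found in both MSM libraries and in no B6 library. Of 27334 regions over the genome, 3.06% were of the former kind and 3.08% of the latter.

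*Sqle* encodes squalene epoxidase, a rate-controlling enzyme of the later pathway. The gene (ENSMUSG00000022351.14) lies on the plus strand of chromosome 15 from 59315077 to 59331192. No peak was listed in either B6 library or in either hybrid, whereas 2245 and 1702 bp were covered in MSM replicates 1 and 2. The main MSM domain ran from 92 to 2005 bp downstream of the start in replicate 1 and from 55 to 1523 bp in replicate 2, over the untranslated region and a coding exon. A weaker peak lay upstream, from −1193 to −863 bp in replicate 1 and from −938 to −642 bp in replicate 2. The strongest promoter peak stood at percentile 84.3 in MSM replicate 1 (fold 7.60) and 34.7 in replicate 2 (fold 4.35). A promoter peak in both MSM libraries and in no B6 or F1 library was found at 0.155% of the 21911 genes, 34 in all.

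*Cyp51* encodes lanosterol 14-alpha-demethylase, which takes the first step after lanosterol. The gene (ENSMUSG00000001467.5) spans 4081145 to 4104746 on the minus strand of chromosome 5. The covered length was 1099 and 237 bp in B6, 1093 and 1468 bp in MSM, and 0 bp in F1 BM and F1 MB. B6 replicate 1 and MSM replicate 1 were thus alike, and B6 replicate 2 was low. The summit of the strongest peak lay 97 and 138 bp downstream of the start in B6, and 545 and 554 bp downstream in MSM. A promoter peak in all 4 parental libraries and in neither hybrid was found at 0.224% of genes, 49 in all.

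**Figure D2:**
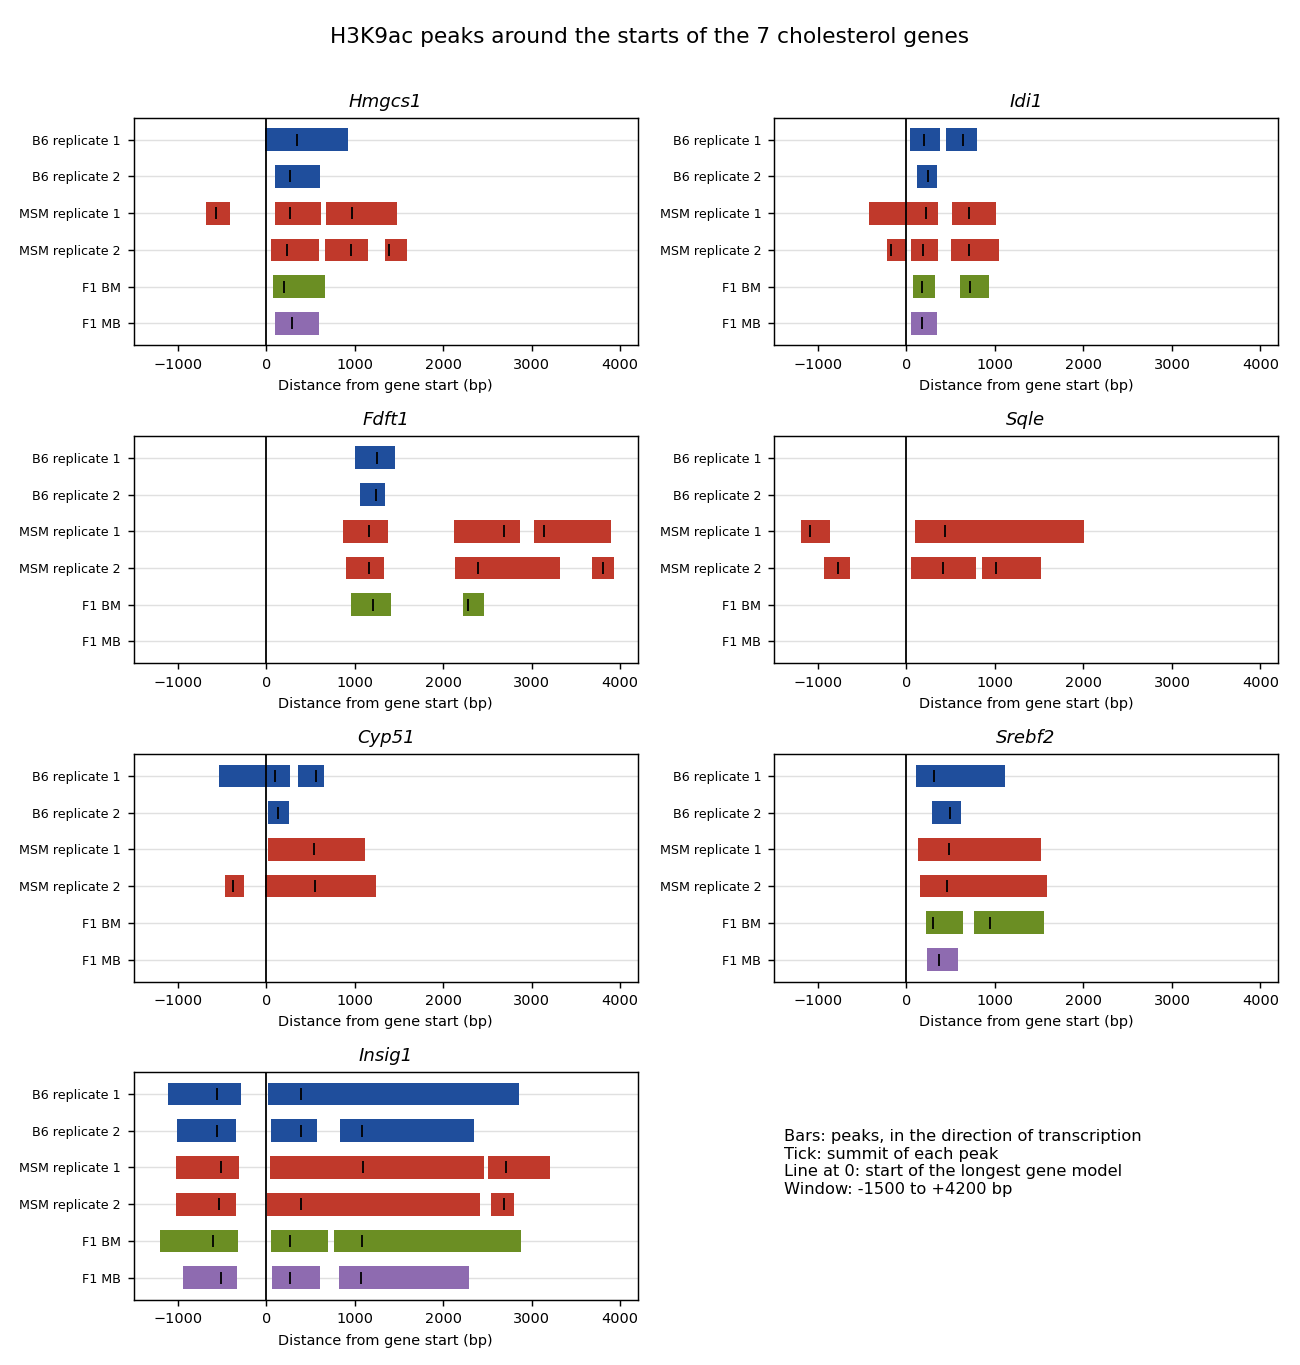
Peaks within 1500 bp upstream and 4200 bp downstream of each gene start, in the direction of transcription (x axis, bp); each row is 1 library, bars are peaks and ticks their summits. The MSM rows of *Hmgcs1*, *Idi1*, *Fdft1* and *Sqle* extend beyond the B6 rows, and *Cyp51* has no bar in either F1 row.

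*Srebf2* encodes SREBP2 itself. The gene (ENSMUSG00000022463.8) lies on the plus strand of chromosome 15 from 82147181 to 82205379. Its covered length was 2831 and 590 bp in B6, 1889 and 1776 bp in MSM, 1961 bp in F1 BM and 955 bp in F1 MB. B6 replicates 1 and 2 were the highest and the lowest, so that the strains overlapped. The promoter domain alone was 1005 and 335 bp wide in B6, 1388 and 1438 bp in MSM, 1323 bp in F1 BM and 359 bp in F1 MB. It was wider in both MSM libraries than in either B6 library, and F1 BM was near MSM and F1 MB near B6 replicate 2. The rank of the strongest promoter peak was 68.4 and 36.6 in B6, 93.6 and 82.7 in MSM, 39.0 for F1 BM and 26.9 for F1 MB.

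The rest of the *Srebf2* signal lay far inside the gene. A region 36775 to 37507 bp from the start, in intron 10, had a peak in all 6 libraries, with folds of 6.39 and 2.96 in B6, 3.90 and 4.88 in MSM, 5.27 in F1 BM and 4.98 in F1 MB. In both hybrids this fold was above that of the promoter (3.12 for F1 BM, 3.80 for F1 MB), and in all 4 parental libraries it was below. A neighbouring region at 37833 to 38351 bp, over a coding exon, had a peak in B6 replicate 1, MSM replicate 1 and F1 BM. Another in intron 1, 18982 to 19585 bp from the start, was found in B6 replicate 1 alone. *Mir33*, the microRNA within intron 16 and 50941 bp from the start, was 12590 bp from the nearest peak and had none over it in any library.

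**Figure D3:**
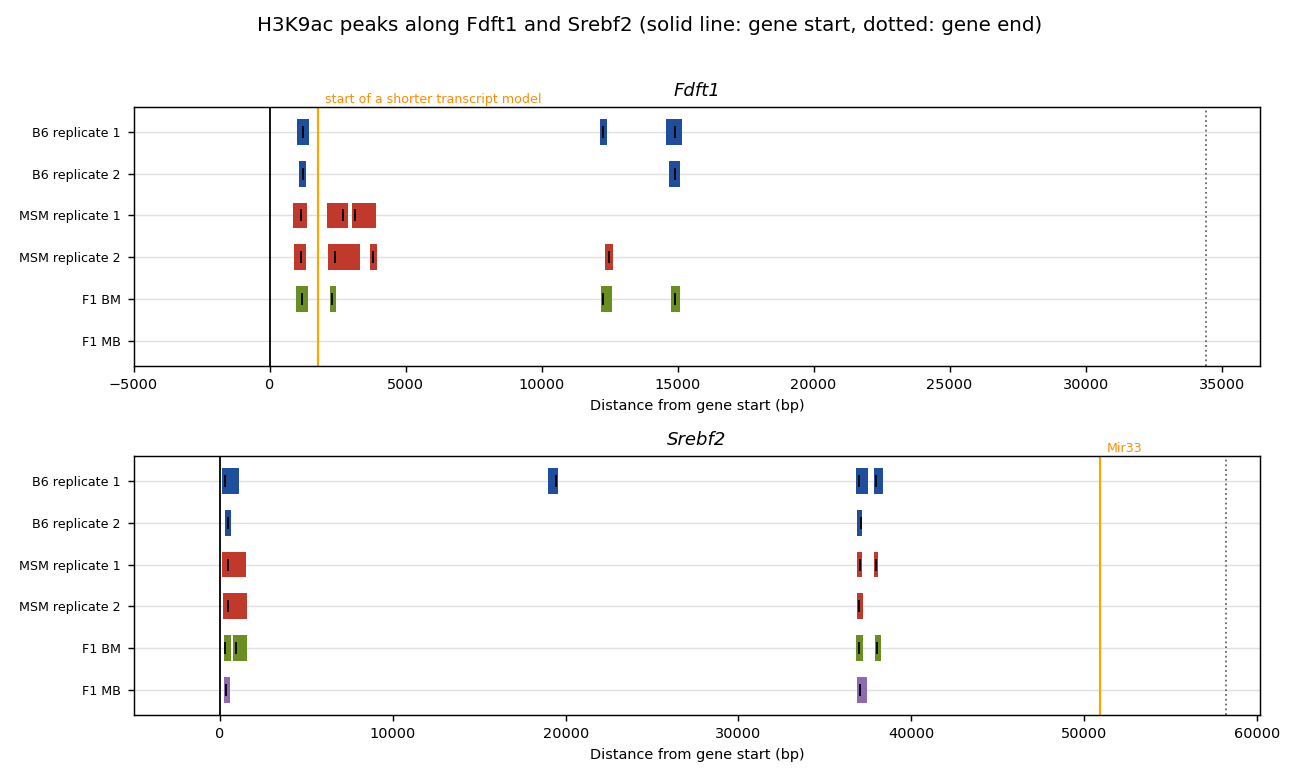
Peaks along the whole of *Fdft1* and *Srebf2* (x axis, distance from the gene start in bp); each row is 1 library, ticks are summits, the solid black line is the gene start and the dotted line the gene end. The *Fdft1* peak at 14580 to 15168 bp is in both B6 rows and F1 BM, and the *Srebf2* region at 36775 to 37507 bp is in all 6 rows.

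*Insig1*, whose product retains SCAP, had the broadest promoter domain of the 7. The gene (ENSMUSG00000045294.11) lies on the plus strand of chromosome 5 from 28071363 to 28078662. Its domain was 3971 and 3356 bp wide in B6, 4233 and 3825 bp in MSM, 4081 bp in F1 BM and 3236 bp in F1 MB, which placed it between percentiles 96.6 and 98.6 of the promoter domains of the same library. The strains overlapped, and F1 MB was the narrowest. The covered length was 3667 and 2701 bp in B6 and 3824 and 3366 bp in MSM. In each library the domain had a separate upstream peak, between −1198 and −290 bp from the start and over the neighbouring gene *Gm26608*, and a downstream part from near the start to between 2293 and 3208 bp. The strongest promoter peak stood between percentiles 87.4 and 98.8 in all 6 libraries.

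Across the 7 genes, promoter peaks (within 1 kb of the start) were present in all 6 libraries at *Hmgcs1*, *Idi1*, *Srebf2* and *Insig1*, 4 of 7, against 23.6% of all genes. *Fdft1* met this window in MSM and F1 BM, and in B6 its peak began 1009 and 1065 bp from the start, just outside it. Promoter domain width could be compared in 5 genes with a domain in all 4 parental libraries. It was greater in both MSM libraries for 3 of 5, *Hmgcs1*, *Idi1* and *Srebf2*, against 5.42% of 5186 genes, and greater in both B6 libraries for none of 5, against 16.7%. Without joining of peaks it was greater in both MSM libraries for 2 of 5, *Cyp51* and *Srebf2*, against 5.80% of genes: the *Idi1* difference fell from 864.5 to 221 bp with overlapping strains, and that of *Hmgcs1* was −192 bp. The median difference was 737.5 bp in the 5 genes and −82.5 bp in all genes. It was 408 bp without B6 replicate 2, against −356 bp in all genes, and 1078 bp without B6 replicate 1, against 193.5 bp. At *Fdft1* widths could not be compared, because the domain nearest the start of the shorter model, a start chosen after its peaks had been seen, lay upstream of it in B6 and downstream of it in MSM. The upstream peak, which both strains had, was 447 and 283 bp wide in B6 and 514 and 428 bp in MSM, so that the strains overlapped.

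The enrichment rank did not follow one direction at every gene. The mean rank difference, MSM minus B6, was above 0 in 4 of 5 genes against 48.9% of all genes, with a median of 17.2 against −0.315. Without B6 replicate 2 it was above 0 in 3 of 5 against 29.4%, with a median of 2.70 against −8.53. Without B6 replicate 1 the median was 31.6 against 4.69. The rank was higher in both MSM libraries for *Idi1* and *Srebf2*, 2 of 5 genes, against 13.6% of 5579 genes. It was higher in both B6 libraries for *Hmgcs1*, 1 of 5, against 18.4%. *Cyp51*, at 78.2 and 49.3 in B6 and 73.8 and 88.0 in MSM, and *Insig1* overlapped. When every list held equally many peaks, 3 of 5 ranked higher in MSM, with *Cyp51* added, against 16.3% of genes. Without B6 replicate 1 the MSM count was 4 of 5, against 47.3%, and without B6 replicate 2 it was 2 of 5, against 18.8%. At the same covered length 0 of 2 testable genes were called.

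**Figure D4:**
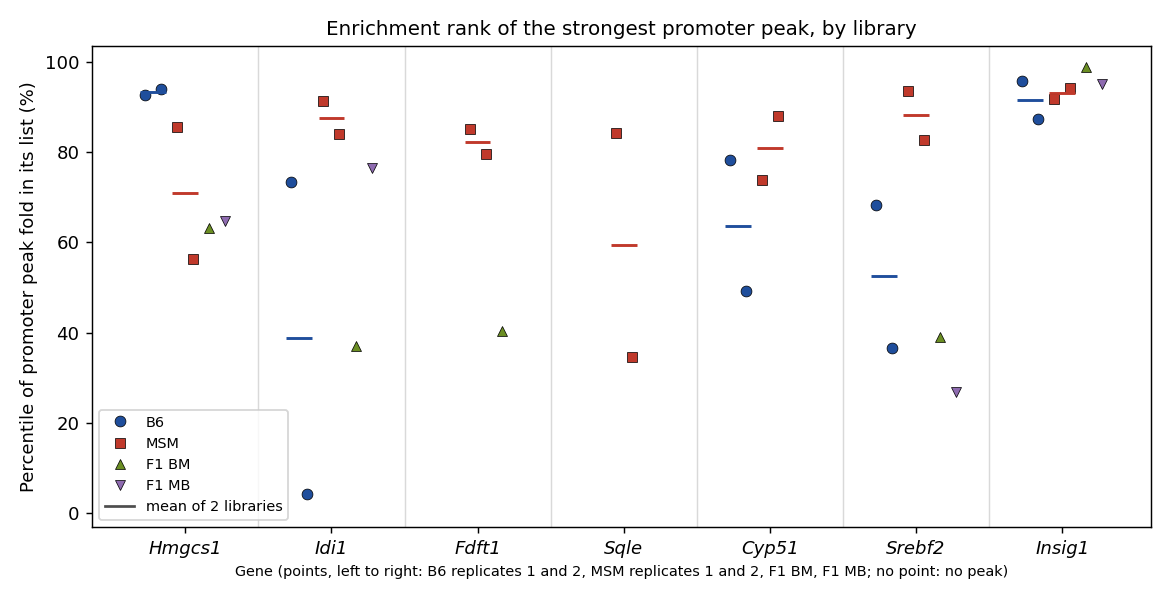
Percentile of the fold of the strongest promoter peak among all peaks of its own list (y axis, %) for each gene; each point is 1 library, bars are means of 2 libraries, and a missing point means no promoter peak. *Insig1* stays above 87 in all libraries, whereas *Idi1* spans 4.34 to 91.3.

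In terms of shares, the MSM libraries held 66.5% of the parental covered length at *Hmgcs1*, 72.1% at *Idi1*, 68.4% at *Fdft1*, 65.7% at *Cyp51* and 100% at *Sqle*. The median of all genes was 45.7%. It was 51.7% at *Srebf2* and 53.0% at *Insig1*, the regulators. The share at *Hmgcs1*, *Idi1*, *Fdft1* and *Cyp51* was at or above that of 94.0% to 96.1% of genes, and that of *Srebf2* and *Insig1* at or above 72.1% and 76.4%. These shares depended on the B6 library. Against B6 replicate 1 alone the median of all genes was 36.7%, and the share was 53.8% to 63.4% at these 4 enzyme genes (at or above that of 93.9% to 96.5% of genes), 39.3% at *Srebf2* and 49.5% at *Insig1*. Against B6 replicate 2 alone the median was 62.3%, the 4 enzyme genes stood at 73.7% to 84.4% (at or above that of 66.2% to 71.0% of genes), *Srebf2* at 75.6% and *Insig1* at 57.1%. The strains overlapped at *Cyp51*, and its difference in covered length fell from 612.5 to 181.5 bp without B6 replicate 2.

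**Figure D5:**
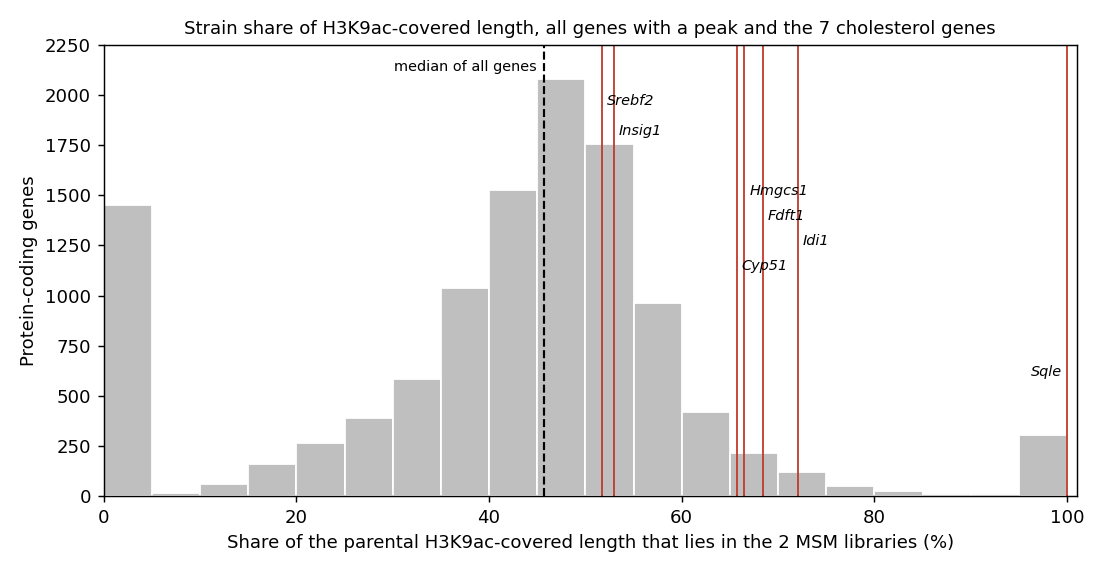
Histogram of the share (x axis, %) of the parental H3K9ac-covered length that lay in the 2 MSM libraries, over the 11446 genes with a parental peak (y axis, genes); red lines are the 7 cholesterol genes and the dashed line the median of 45.7%. The 5 enzyme genes lie between 65.7 and 100%.

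The hybrids were compared with the parental libraries by value alone. F1 BM was below both MSM libraries in covered length at 5 of 7 genes, against 20.7% of all genes, and F1 MB at 7 of 7, against 46.1%. These shares include genes without a peak in an MSM library, which could not be called. All 7 genes had peaks in both MSM libraries, so the counts and the shares are not like for like. The summed covered length of the 7 genes was 10501 and 4951 bp in B6, 14049 and 12790 bp in MSM, 8181 bp in F1 BM and 4369 bp in F1 MB. Both hybrids thus lay below both MSM libraries, and F1 MB below every parental library. F1 BM had 20173 peaks in all, more than either MSM library. Each cross had 1 animal, and no allele was told apart in the peak lists.

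The rest of the pathway was read from lists of genes other than the 7, which were also chosen with earlier results of these data known. Of 13 other synthesis enzymes, 5 were longer in both MSM libraries (*Fdps*, *Lss*, *Msmo1*, *Nsdhl* and *Dhcr7*, the other 8 overlapping) and none in both B6 libraries, against 4.97% and 11.6% of genes. With the 5 enzymes among the 7 genes, this made 9 of 18 in MSM and 0 of 18 in B6. Against B6 replicate 1 alone it was 9 of 18 in MSM and 3 of 18 in B6 (5.03% and 84.2% of genes), and without B6 replicate 1 it was 16 of 18 in MSM, against 61.2% of genes. At the same covered length in all lists 9 of 17 were longer in MSM, against 17.5%. Among these, *Idi1* and *Cyp51* had 0 bp left in B6 replicate 1.

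*Msmo1*, the sterol C4 methyl oxidase, had a domain of 787 and 607 bp in B6 and 897 and 876 bp in MSM, 848 bp in F1 BM and none in F1 MB. *Fdps*, farnesyl diphosphate synthase, had 1386 and 462 bp in B6 and 1493 and 1984 bp in MSM. These were the 2 of 5 testable enzymes whose domain was wider in both MSM libraries, and none was wider in both B6 libraries, against 5.42% and 16.7% of genes. A promoter peak was present in all 6 libraries at 4 of the 13, against 23.6% of genes, and was absent from at least 1 library at the other 9: *Mvk*, *Pmvk*, *Mvd*, *Fdps*, *Lss*, *Tm7sf2*, *Msmo1*, *Nsdhl* and *Hsd17b7*. The number of the 13 with a promoter peak was 11 and 6 in B6, 12 and 11 in MSM, 8 in F1 BM and 5 in F1 MB. Among all 21911 genes it was 9688 and 6123 in B6, 7784 and 7930 in MSM, 7728 in F1 BM and 6935 in F1 MB. *Pmvk*, phosphomevalonate kinase, had no promoter peak in any library, and *Hsd17b7* had one in MSM replicate 1 alone.

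The regulators and uptake genes outside the 7 did not share the direction. Of 9 such genes, 1 was longer in both MSM libraries (against 4.97% of genes) and 4 in both B6 libraries (against 11.6%). The B6 count was 3 with equally many peaks (19.3% of genes), 2 with the same covered length (15.6%), and 7 without B6 replicate 2 (84.2%). The MSM count was 0 with equally many peaks (8.87%) or the same covered length (17.5%), and 3 without B6 replicate 1 (61.2%). With all peaks and libraries the 1 was *Mylip*, the ubiquitin ligase that degrades lipoprotein receptors, with 498 and 1165 bp against 388 and 0 bp in B6. The 4 were *Mbtps1* and *Mbtps2*, the proteases that release SREBP2, *Scarb1*, the receptor for high-density lipoprotein, and *Lrp1*, an endocytic receptor. *Mbtps1* had a domain of 1435 and 723 bp in B6 and 672 and 380 bp in MSM. *Lrp1* had 5878 and 3862 bp in B6 and 3255 and 3249 bp in MSM. *Mbtps2* was without a promoter peak in MSM replicate 1 and F1 BM.

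The genes most like the 7 in domain width over the 6 libraries were *Hsd17b4*, *Pyroxd2* and *Hsd17b11*. Likeness was the root mean square difference in log2 width from the mean profile of the 4 genes with a domain in every library, and it was 0.179, 0.189 and 0.211 among 4729 genes compared. *Pyroxd2* measured 1405 and 624 bp in B6, 1460 and 1709 bp in MSM, 1063 bp in F1 BM and 643 bp in F1 MB. *Hsd17b11* measured 1237 and 472 bp in B6, 1930 and 1952 bp in MSM, 1063 bp in F1 BM and 548 bp in F1 MB. Each was widest in MSM and narrow in B6 replicate 2 and F1 MB, as was the mean profile by which they were picked, so this is no separate result. These 6 points share the size of the lists.

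Because the series concerned B2, a family of short interspersed elements, copies near the 7 genes were sought in GRCm38 by matching the study's B2 probe of 26 nt with up to 2 mismatches. A match lay within 5 kb of the start in 4 of 7 genes, against 29.5% of all genes, and within 1 kb upstream in 1 of 7, against 2.39%. The nearest was at *Idi1*, from 8884741 to 8884766 on chromosome 13, with its midpoint 747 bp upstream of the start, and it was the one within 1 kb. That of *Srebf2* lay 1843 bp, that of *Sqle* 2653 bp and that of *Hmgcs1* 2771 bp upstream. None of these lay under a peak of any library, and the MSM domain of *Idi1*, which reached 428 bp upstream, ended short of the copy. Whether MSM carries these copies was not analysed here.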

How the data were processed

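The series holds 12 samples, 6 H3K9ac ChIP-seq libraries and 6 inputs, and the inputs were not analysed here. The authors fixed adult livers with formaldehyde, precipitated chromatin with an H3K9ac antibody and sequenced 50-bp read pairs. Their methods name Trim Galore and Bowtie 2 with mm10 (GRCm38), and the submitters' processing notes name Trim Galore, HISAT2, SAMtools and MACS2. The threshold and the use of the inputs in peak calling are not given in the sources used here. Reads of all strains were mapped to the B6 sequence, so MSM reads over differing sequence could be lost.

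The deposited files were narrowPeak lists, 1 per library and not pooled. Each peak carries the fold enrichment (a ratio) and the −log10 p-value and −log10 q-value that the authors' caller wrote, with a lowest −log10 q of 1.30, and a summit offset. A score in the deposited lists, the −log10 q on another scale, was not used.

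Lists were read with Python 3.11.15 and numpy 2.4.6, and figures were drawn with matplotlib 3.10.9. Gene models came from GENCODE M21, 1 start per symbol (the longest model). A promoter peak overlapped the 1 kb either side of the start by at least 1 bp. Domains joined peaks up to 500 bp apart, and the domain nearest the start within 500 bp was taken. A gene was called longer, wider or higher in a strain when both of its libraries exceeded both of the other strain. Single genes were compared by a two-sided exact permutation test, whose smallest p is 0.333. The code that makes the calls was checked on simulated lists with known differences, which says nothing about how often chance gives a call in these data. Alternatives were stricter or equalised lists, other windows and joining, each parental library left out, and the replicate number as a block. The members and lists were chosen with earlier results of these data known. All 7 members are named. Other pathway genes are named where a promoter peak was missing from a library or where domain widths did not overlap. An item of the enzyme list is not reported here and enters no count of that list. *Dhcr7*, *Scarb1* and the hepatocyte markers were named after their values were seen. The B2 search and the shorter sterol letters were also chosen after the data were seen.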

Additional observations from a re-analysis of the deposited data

How the results depend on the processing

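Of 174 differences between strains recomputed for single genes, 164 kept their sign and 10 did not, and *Insig1* accounted for most of the latter. Some settings, such as 2 kb around the start with the gene body or 500 bp around the start, returned the main differences unchanged. A kept sign there is no separate check. When all lists held equally many peaks, the MSM minus B6 difference of *Insig1* became −75.0 bp in covered length, −0.0645 in rank and −204 bp in domain width. With the same covered length it was −75.0 and −204 bp. Its difference was −0.258 in the fold itself. Without joining, the domain difference of *Hmgcs1* was −192 bp.

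With a −log10 q of at least 5, the number of genes ranked higher in both MSM libraries was 1 of 4, against 12.9% of 4618 genes. With the same covered length, 2 genes kept a promoter peak in all 6 libraries. Of the 2 genes then testable, 0 were called in rank or in width in either direction, since the strains overlapped. Among all tested genes, 16.2% were ranked higher in MSM and 16.4% in B6, and 9.35% were wider in MSM and 25.2% in B6. The rank difference of *Hmgcs1* was −36.8 against −22.3 with all peaks. By width percentile within the library, chosen after seeing the data, 5 of 5 genes were wider in MSM, against 22.0% of all genes.

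Leaving out 1 parental library at a time, the number of genes longer in MSM ranged from 4 to 7 and in B6 from 0 to 1, wider in MSM from 3 to 5, ranked higher in MSM from 2 to 4 and in B6 from 1 to 2. Of all tested genes, 61.2% were longer and 61.8% wider in MSM without B6 replicate 1, against 5.03% and 6.49% without B6 replicate 2. Longer in B6 were 13.2% and 84.2%, in the same order. By rank, 47.3% of tested genes were higher in MSM and 23.7% in B6 without B6 replicate 1. Without B6 replicate 2 these were 18.8% and 51.2%. The MSM counts were highest without B6 replicate 1 and the B6 counts without B6 replicate 2. Over the same omissions the covered length difference of *Srebf2* ranged from −998.5 to 1242.5 bp, that of *Insig1* from −72.0 to 894 bp and the rank difference of *Insig1* from −2.79 to 5.53, each lowest without B6 replicate 2.

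The replicate 1 minus 2 differences in log2 domain width of B6 and of MSM correlated at −0.029 across 5186 genes. This cannot exclude that replicate numbers pair the libraries, since a shift shared by all genes does not enter a correlation. With the replicate block, 5 of 7 genes were longer and 4 of 5 wider in MSM, 0 of either in B6, and the smallest paired p is 0.5. No share of all genes is at hand for the block, so these counts cannot be set beside one. Depth was not used here, and missing peaks may reflect it. The cause of these changes was not tested.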
